A study of Mus musculus with 16 samples.

Results

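The transcripts described here encode 9 folding factors of the endoplasmic reticulum (ER) and the transcription factor XBP1. They are Hspa5, Hyou1, Dnajb11, Dnajb9, Pdia4, Pdia6, Hsp90b1, Sdf2l1, Creld2 and Xbp1, chosen by name, 10 of the 46078 genes in the deposited count table. The choice was made with earlier results of these data known. All 10 passed the filter on low counts and were tested, among 12910 genes. RNA was sequenced from livers of 22-week-old C57BL/6 mice made obese by diet and carrying hepatic steatosis, and 4 libraries represented each of 4 groups. The Dicretin group received Dicretin, a co-agonist of the GLP-1 and glucagon receptors. The Semaglutide group received Semaglutide, an agonist of the GLP-1 receptor alone. The calorie restriction group reached an equivalent weight loss through restricted feeding, and the saline group received the vehicle. Obesity, steatosis, strain and age were shared by all groups, saline included. The doses, the treatment length and the sex of the mice are not given in the sources used here. Whether each library came from a separate animal is not stated either, so the p-values measure the spread between these libraries.

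Proteins that enter the ER are folded there by the Hsp70-type chaperone BiP (Hspa5), the Hsp90-type chaperone GRP94 (Hsp90b1) and protein disulfide isomerases. When unfolded proteins accumulate, the sensors IRE1, ATF6 and PERK start the unfolded protein response. IRE1 splices the Xbp1 messenger so that it encodes an active transcription factor, and spliced XBP1 and cleaved ATF6 raise transcription of chaperone and degradation genes. Hepatocytes secrete most plasma proteins and carry a large ER, and in mice the hepatic XBP1 pathway is also known for responding to feeding and for its part in lipid synthesis.

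Cleaved ATF6, together with the factor NF-Y, is known to act through the ER stress response element, in which CCAAT and CCACG are spaced so that the element spans 19 bases. The related ERSE-II spans 11 bases, ATTGG and CCACG with any base between them. Both were searched on both strands, as were the core of the unfolded protein response element (TGACGTGG) and the cyclic AMP response element (TGACGTCA). RefSeq windows on GRCm38.p6 that ran from 250 bases before to 50 bases after the transcript start were matched for 9 of the 10 genes, and Hyou1 was not matched. The ER stress response element occurred in 4 of the 9 windows (Hspa5, Pdia6, Hsp90b1 and Creld2), and in 0.119% of all 32851 windows. ERSE-II occurred in 1 of the 9 windows (Dnajb11), and in 0.0365% of all windows. The unfolded protein response core and the cyclic AMP element were in 0 of the 9 windows, and in 0.676% and 1.79% of all windows. The shorter CCACG, which both ER stress elements contain, was in 8 of the 9 windows and in 32.8% of all windows. CCAAT on either strand was in 8 of the 9 windows and in 37.4% of all windows. The match in Hspa5 started 65 bases before the transcript start, and the match in Dnajb11 lay 7 bases after it. A match of letters is a description of the sequence and not a measured binding site. Pdia6, Hsp90b1 and Creld2, which also carry the ER stress response element, are not among the 5 windows that follow. These 5 were chosen after the levels had been seen. They are Hspa5 (chr2:34771840-34772139, plus strand), Dnajb11 (chr16:22857595-22857894, plus strand), Dnajb9 (chr12:44210019-44210318, minus strand), Pdia4 (chr6:47813463-47813762, minus strand) and Xbp1 (chr11:5520391-5520690, plus strand). Each is written 5′ to 3′ on the gene's strand, and capitals mark the ER stress response element, ERSE-II and CCACG on either strand.
Hspa5: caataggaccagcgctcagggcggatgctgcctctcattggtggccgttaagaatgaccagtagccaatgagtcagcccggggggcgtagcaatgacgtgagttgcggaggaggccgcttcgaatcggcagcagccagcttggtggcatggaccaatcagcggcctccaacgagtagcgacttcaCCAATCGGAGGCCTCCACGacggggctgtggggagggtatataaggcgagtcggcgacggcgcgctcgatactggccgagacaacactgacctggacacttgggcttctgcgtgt
Dnajb11: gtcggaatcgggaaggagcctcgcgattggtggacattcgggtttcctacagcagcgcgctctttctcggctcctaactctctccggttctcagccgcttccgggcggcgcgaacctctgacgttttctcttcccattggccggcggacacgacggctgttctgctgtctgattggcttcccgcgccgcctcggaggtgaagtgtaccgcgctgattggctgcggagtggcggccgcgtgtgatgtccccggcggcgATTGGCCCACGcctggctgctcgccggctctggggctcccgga
Dnajb9: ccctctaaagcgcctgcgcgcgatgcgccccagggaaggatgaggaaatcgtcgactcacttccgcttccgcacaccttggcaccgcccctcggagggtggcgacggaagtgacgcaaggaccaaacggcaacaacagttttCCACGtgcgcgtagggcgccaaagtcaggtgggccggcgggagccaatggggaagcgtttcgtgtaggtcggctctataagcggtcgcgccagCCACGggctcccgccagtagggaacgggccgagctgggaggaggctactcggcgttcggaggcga
Pdia4: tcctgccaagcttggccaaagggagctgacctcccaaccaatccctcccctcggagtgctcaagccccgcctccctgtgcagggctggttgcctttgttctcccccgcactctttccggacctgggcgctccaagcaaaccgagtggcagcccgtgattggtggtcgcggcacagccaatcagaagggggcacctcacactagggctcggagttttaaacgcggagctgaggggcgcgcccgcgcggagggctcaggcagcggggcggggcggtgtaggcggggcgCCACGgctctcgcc
Xbp1: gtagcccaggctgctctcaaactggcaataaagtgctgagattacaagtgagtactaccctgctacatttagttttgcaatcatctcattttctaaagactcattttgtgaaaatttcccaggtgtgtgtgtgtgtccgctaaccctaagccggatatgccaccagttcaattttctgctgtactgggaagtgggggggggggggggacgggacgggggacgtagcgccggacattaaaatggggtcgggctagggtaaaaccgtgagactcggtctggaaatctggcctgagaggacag
Among these 5, Hspa5 and Dnajb11 carried a full ER stress element. Dnajb9 and Pdia4 carried CCACG and CCAAT, but not at the spacing of either element. The Xbp1 window carried neither CCACG nor CCAAT.

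Total counts per library ran from 12143829 to 18755393. Levels are given in CPM, the usual count scaled to a common library size, with edgeR's TMM factors applied. The lowest raw count of a member in any library was 133, for Sdf2l1, and the highest was 27249, for Hspa5. Hepatocyte markers summed to 71392 to 89754 CPM in Dicretin livers, 114961 to 145931 CPM in Semaglutide livers, 123893 to 143511 CPM in calorie-restricted livers and 96203 to 115273 CPM in saline livers. Dicretin library 64 stood apart: 9 markers of pancreatic acinar cells, which are rich in ER, summed to 1510 CPM there and to at most 88.0 CPM in any other library. Its Ctrb1 level was 498 CPM, against at most 5.77 CPM elsewhere, while Amy2a5 was listed at 0 in all 16 libraries. Of the 10 members, library 64 had the lowest level of the Dicretin group in 5 and the highest in 1, Xbp1. The counts of members called are also given without it, as are list counts of the Dicretin comparisons that differ without it. The part of the pancreatic transcripts in the members' levels was not tested. In bulk RNA, fewer cells of a type and less RNA per cell cannot be told apart. The comparisons against saline share the saline libraries, and those against calorie restriction or Semaglutide share those libraries, so the comparisons are not independent of each other.

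In saline livers the members differed widely in level per kilobase of exon. Hsp90b1 was the most abundant at 119 ± 1.95 CPM per kilobase, followed by Hspa5 at 84.8 ± 7.95 (SD, n = 4 each). Pdia4, Xbp1 and Pdia6 followed at 56.9, 52.5 and 49.4 CPM per kilobase, and the libraries of neighbours among these 3 overlapped. Hyou1 was lowest at 5.25 ± 0.83 CPM per kilobase. In the Dicretin and calorie restriction groups Hspa5 stood first, at 249 ± 95.6 and 241 ± 75 CPM per kilobase, with libraries that overlapped those of Hsp90b1 in both groups. In Semaglutide livers Hsp90b1 and Hspa5 had nearly the same mean, 155.8 and 155.6 CPM per kilobase. Summed over the 10 members, CPM was 2664 ± 708 in Dicretin livers, 2273 ± 359 in Semaglutide livers, 3007 ± 630 in calorie-restricted livers and 1499 ± 50.8 in saline livers (SD, n = 4 each). The lowest library of the 3 weight-loss groups had a sum of 1933 CPM, above the highest saline library at 1566 CPM.

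**Figure D1:**
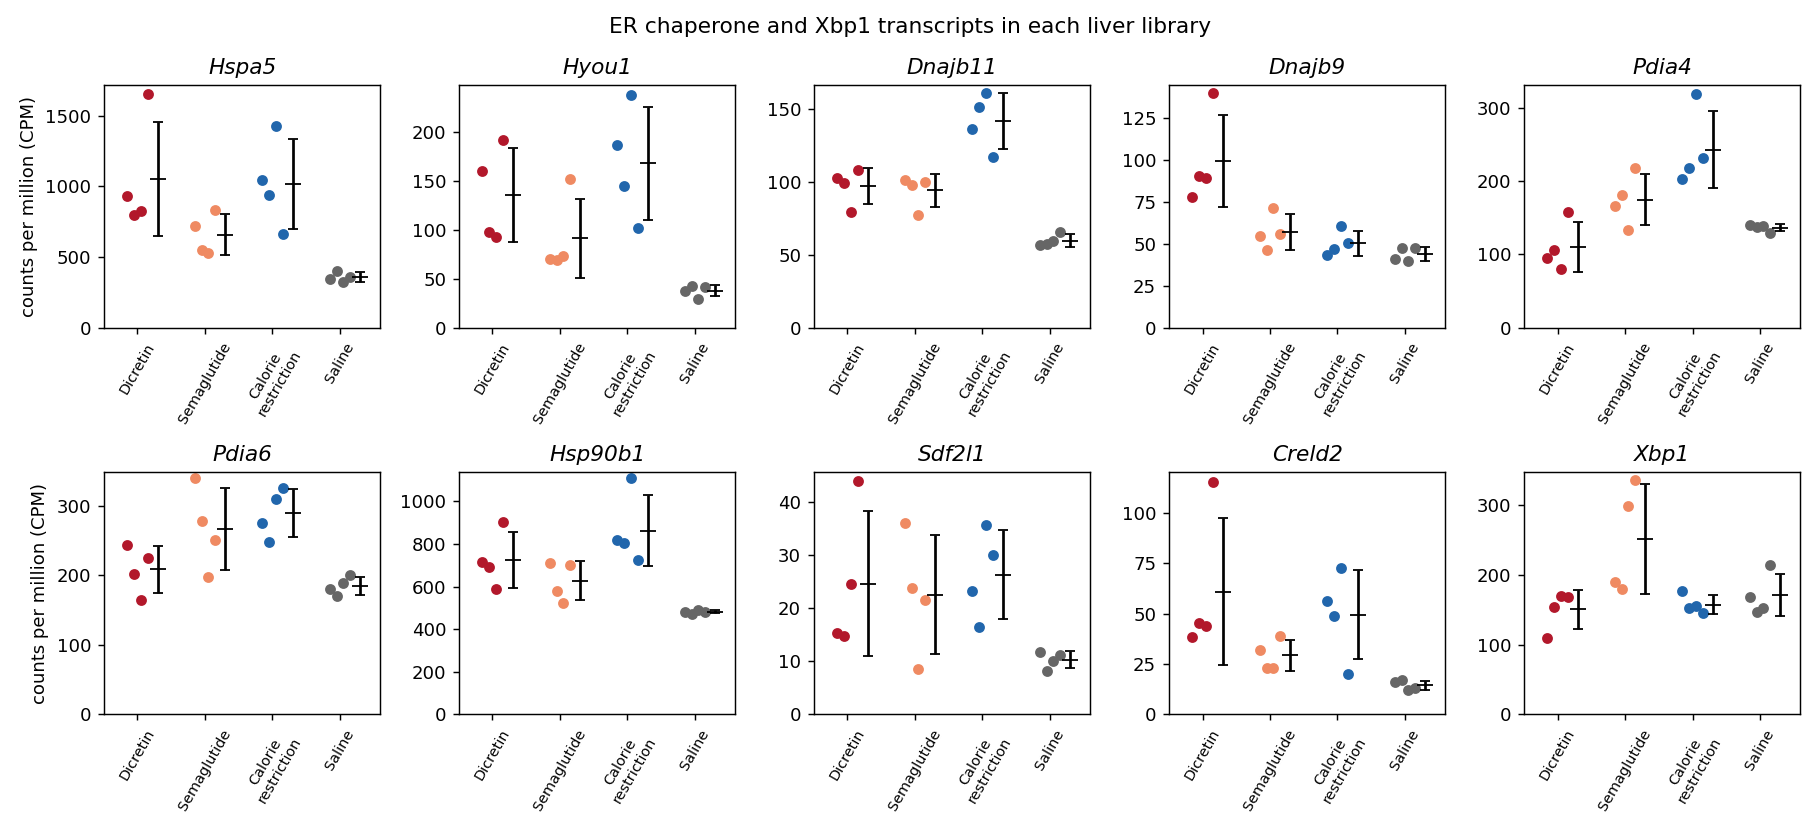
Level in CPM of the 10 members in each of 16 liver libraries (points, 4 per group in order of library number), with the group mean and SD beside them. Saline libraries lie close together for most members. All weight-loss libraries lie above saline for Hspa5, Hyou1, Dnajb11, Hsp90b1 and Creld2, and Dicretin stands apart from the other groups for Dnajb9.

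BiP and its exchange factor were higher in all 3 weight-loss groups than in saline. Hspa5 (mouse chromosome 2, 34771970 to 34777547, plus strand of GRCm38) had 934, 796, 826 and 1652 CPM in Dicretin livers, 721, 552, 528 and 832 CPM in Semaglutide livers, 1049, 940, 1426 and 660 CPM in calorie-restricted livers, and 346, 403, 323 and 362 CPM in saline livers. Every weight-loss library exceeded every saline library, and Dicretin library 65 and calorie restriction library 52 were the highest. The log2 fold change against saline was 1.55 ± 0.25 for Dicretin (SE, adjusted p = 9.53e-05), 0.88 ± 0.24 for Semaglutide (adjusted p = 0.0496) and 1.51 ± 0.25 for calorie restriction (adjusted p = 0.00117), in the edgeR quasi-likelihood fit, adjusted by Benjamini and Hochberg's method over 12910 genes. The Semaglutide call lay at the threshold and was lost without any 1 of 10 libraries, with adjusted p from 0.0538 to 0.146. Hyou1, the exchange factor GRP170 (chromosome 9, 44379490 to 44392369, plus strand), had 160, 98.1, 92.6 and 192 CPM in Dicretin livers, 70.4, 69.2, 73.6 and 152 CPM in Semaglutide livers, 187, 145, 238 and 102 CPM in calorie-restricted livers, and 37.8, 42.9, 29.5 and 41.4 CPM in saline livers. Again no weight-loss library overlapped saline, and Semaglutide library 51 was far above the other 3 of its group. Hyou1 rose by a log2 fold change of 1.84 ± 0.30 in Dicretin (adjusted p = 0.000122), 1.27 ± 0.30 in Semaglutide (adjusted p = 0.0192) and 2.15 ± 0.30 in calorie restriction (adjusted p = 0.000299). The Semaglutide call on Hyou1 was lost without Semaglutide library 51 (adjusted p = 0.0610), saline library 35 (0.0663) or saline library 73 (0.0764).

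The J-domain partners of BiP did not follow a common order. Dnajb11 encodes ERdj3, which hands unfolded proteins to BiP (chromosome 16, 22857845 to 22879634, plus strand). It had 103, 99.2, 79.7 and 109 CPM in Dicretin livers, 102, 98.0, 77.2 and 100 CPM in Semaglutide livers, 137, 152, 161 and 118 CPM in calorie-restricted livers, and 56.8, 57.2, 59.4 and 66.0 CPM in saline livers. All calorie-restricted libraries lay above all Dicretin and Semaglutide libraries, which in turn lay above saline. Its log2 fold change against saline was 0.70 ± 0.14 in Dicretin (adjusted p = 0.000641), 0.66 ± 0.14 in Semaglutide (adjusted p = 0.00948) and 1.25 ± 0.14 in calorie restriction (adjusted p = 2.75e-05). Dnajb9 encodes ERdj4, a BiP partner tied to ER-associated degradation and to restraint of IRE1 (chromosome 12, 44205559 to 44210326, minus strand). It had 77.8, 90.5, 89.0 and 140 CPM in Dicretin livers, 54.8, 46.2, 71.4 and 55.7 CPM in Semaglutide livers, 43.3, 46.7, 60.3 and 50.4 CPM in calorie-restricted livers, and 41.1, 47.7, 39.6 and 47.4 CPM in saline livers. Dicretin libraries lay above every library of the other groups, which overlapped one another. Dnajb9 rose in Dicretin livers by a log2 fold change of 1.17 ± 0.18 (adjusted p = 5.9e-05), while the values of 0.38 ± 0.18 in Semaglutide and 0.19 ± 0.18 in calorie restriction did not pass (adjusted p = 0.261 and 0.559).

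Pdia4 and Pdia6, both disulfide isomerases, rose with calorie restriction and did not pass the test in Dicretin or Semaglutide livers. Pdia4 encodes ERp72 (chromosome 6, 47796141 to 47813430, minus strand). It had 95.5, 106, 79.7 and 158 CPM in Dicretin livers, 166, 181, 134 and 218 CPM in Semaglutide livers, 203, 218, 319 and 232 CPM in calorie-restricted livers, and 140.5, 138, 138 and 130 CPM in saline livers. Of the 4 Dicretin libraries, 3 lay below every saline library and library 65 lay above them. The log2 fold change against saline was -0.32 ± 0.20 in Dicretin (adjusted p = 0.225), 0.36 ± 0.20 in Semaglutide (adjusted p = 0.346) and 0.83 ± 0.20 in calorie restriction (adjusted p = 0.0148). Without Dicretin library 65, Pdia4 passed as lower in Dicretin, at -0.54 with an adjusted p of 0.0270, and without calorie restriction library 52 the calorie restriction call was lost (adjusted p = 0.0555). Pdia6 encodes P5, an isomerase that works with BiP (chromosome 12, 17266545 to 17284770, plus strand). It had 244, 202, 165 and 225 CPM in Dicretin livers, 341, 278, 198 and 251 CPM in Semaglutide livers, 276, 249, 310 and 325 CPM in calorie-restricted livers, and 180, 171, 189 and 201 CPM in saline livers. Calorie-restricted libraries did not overlap saline, and both other groups did. Pdia6 rose by 0.65 ± 0.16 on the log2 scale in calorie restriction (adjusted p = 0.0211), a call lost without calorie restriction library 52 or 79 or saline library 35 or 50 (adjusted p from 0.0520 to 0.0649). Its values of 0.17 ± 0.16 in Dicretin and 0.53 ± 0.16 in Semaglutide did not pass (adjusted p = 0.431 and 0.0785). Pdia6 overlaps the gene Atp6v1c2 on the opposite strand, and the strand setting of the counting is unknown here, so reads from both genes may be mixed.

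Hsp90b1, the most abundant of the remaining chaperones (chromosome 10, 86690209 to 86705509, minus strand), had 717, 691, 590 and 904 CPM in Dicretin livers, 711, 578, 522 and 702 CPM in Semaglutide livers, 818, 803, 1107 and 723 CPM in calorie-restricted livers, and 480, 473, 492 and 480 CPM in saline livers. The saline libraries spanned a narrow range, and every weight-loss library lay above it. Hsp90b1 rose by 0.59 ± 0.16 on the log2 scale in Dicretin (adjusted p = 0.00797) and by 0.84 ± 0.16 in calorie restriction (adjusted p = 0.00376), and its 0.38 ± 0.16 in Semaglutide did not pass (adjusted p = 0.200). It overlaps a pseudogene and other short transcripts in the annotation. Creld2, an ER-resident factor with disulfide isomerase activity that is induced by ER stress (chromosome 15, 88819646 to 88826683, plus strand), had 38.6, 45.5, 43.8 and 115 CPM in Dicretin livers, 32.2, 23.2, 23.3 and 39.1 CPM in Semaglutide livers, 56.4, 48.9, 72.7 and 20.2 CPM in calorie-restricted livers, and 15.9, 16.9, 11.9 and 13.3 CPM in saline livers. No weight-loss library overlapped saline, and Dicretin library 65 was far above the rest of its group. The log2 fold change of Creld2 was 2.06 ± 0.37 in Dicretin (adjusted p = 0.000277), 1.02 ± 0.36 in Semaglutide (adjusted p = 0.122) and 1.77 ± 0.36 in calorie restriction (adjusted p = 0.00608). Sdf2l1, which forms a complex with ERdj3 (chromosome 16, 17130138 to 17132383, minus strand), had the fewest counts. It had 15.4, 14.7, 24.5 and 43.9 CPM in Dicretin livers, 36.0, 23.9, 8.62 and 21.5 CPM in Semaglutide livers, 23.3, 16.4, 35.7 and 29.9 CPM in calorie-restricted livers, and 11.7, 8.20, 10.1 and 11.2 CPM in saline livers. Semaglutide library 31 lay inside the saline range and the other weight-loss libraries lay above it. Sdf2l1 passed at a log2 fold change of 1.25 ± 0.38 in Dicretin (adjusted p = 0.0148; 0.0756 without Dicretin library 65) and 1.36 ± 0.38 in calorie restriction (adjusted p = 0.0346), and its 1.13 ± 0.38 in Semaglutide did not pass (adjusted p = 0.103). The calorie restriction call was lost without calorie restriction library 7, 52 or 79 or without any 1 of the 4 saline libraries (adjusted p from 0.0631 to 0.0990).

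The Xbp1 transcript did not pass the test against saline in any group. It had 110, 154, 170 and 169 CPM in Dicretin livers, 190, 179, 298 and 336 CPM in Semaglutide livers, 176, 152, 156 and 145 CPM in calorie-restricted livers, and 168, 147, 153 and 214 CPM in saline livers (chromosome 11, 5520659 to 5525893, plus strand). Every group overlapped saline, and Semaglutide libraries 31 and 51 were the highest. The log2 fold change against saline was -0.18 ± 0.20 in Dicretin (95% interval -0.60 to 0.24, adjusted p = 0.506), 0.56 ± 0.20 in Semaglutide (0.14 to 0.98, adjusted p = 0.127) and -0.12 ± 0.20 in calorie restriction (-0.53 to 0.30, adjusted p = 0.776). Gene-level counts do not separate the spliced from the unspliced messenger, so IRE1 activity was not measured.

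**Figure D2:**
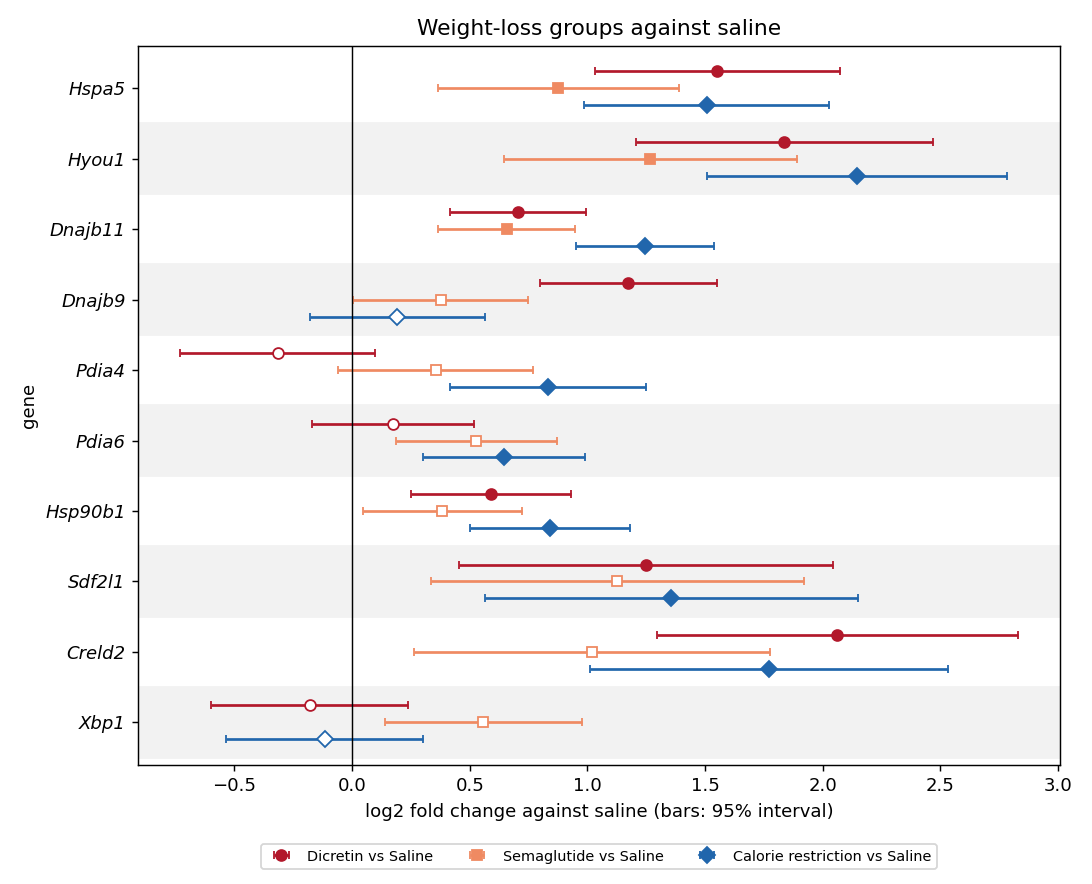
Log2 fold change of each member against saline in the Dicretin, Semaglutide and calorie restriction groups, with 95% intervals from the edgeR fit; filled symbols passed an adjusted p of 0.05. Hspa5, Hyou1 and Dnajb11 passed in all 3 groups, Dnajb9 passed in Dicretin and not in the other two, and Xbp1 passed in none.

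The members were chosen with earlier results of these data known, so their counts beside the shares over all genes are a description. Counted over the members, Dicretin against saline gave 7 higher and 0 lower of 10, where 17.5% of the 12910 genes tested were called higher, 19.2% lower and 36.7% in either direction. Calorie restriction gave 8 higher and 0 lower, where 3.42% of all genes were called higher, 4.11% lower and 7.53% in either direction. Semaglutide gave 3 higher and 0 lower, where 1.56% of all genes were called higher, 2.62% lower and 4.18% in either direction, and 9 members had an unadjusted p under 0.05. The median log2 fold change of the 10 members was 0.94 in Dicretin, 0.61 in Semaglutide and 1.04 in calorie restriction, and that of all tested genes was -0.0054, 0.00037 and -0.011 in that order of groups. Dicretin libraries did not overlap saline and lay above it for 7 members, where 15.7% of all genes did so. Semaglutide libraries did so for 5 members, against 6.42% of all genes, and calorie-restricted libraries for 8, against 11% of all genes. Without Dicretin library 64 these counts of calls were again 7, 3 and 8. Without Dicretin library 65 the Dicretin count was 6 higher and 1 lower, as Sdf2l1 no longer passed and Pdia4 passed as lower. The calorie restriction count was 5 without calorie restriction library 52, and the Semaglutide count was 1 without Semaglutide library 51, saline library 35 or saline library 73.

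Within the Dicretin group, library 65 had the highest level of 8 members, all except Pdia6 and Xbp1. Within calorie restriction, library 52 had the highest level of the same 8. The summed markers of Kupffer cells, the resident macrophages of the liver, were also highest of their group in these libraries. So were those of stellate cells and of leukocytes, and no other marker list was highest in both. The 8 Kupffer markers summed to 563 CPM in Dicretin library 65 and 196 to 427 CPM in the rest of that group, and to 274 CPM in calorie restriction library 52 and 70.5 to 162 CPM in the rest of that group. They summed to 96.4 to 359 CPM in Semaglutide livers and 203 to 343 CPM in saline livers. The group medians of this sum were 356 CPM in Dicretin, 193 CPM in Semaglutide, 124 CPM in calorie restriction and 283 CPM in saline. The stellate cell sum was 307 CPM in Dicretin library 65 and 241 to 294 CPM in the rest of that group. It was 370 CPM in calorie restriction library 52 and 304 to 325 CPM in the rest. The leukocyte sum was 18.9 CPM in Dicretin library 65 and 7.48 to 9.76 CPM in the rest. In calorie restriction it was 13.8 CPM in library 52 and 7.26 to 10.7 CPM in the rest. Plasma cell markers, from another cell type rich in ER chaperones, summed to 626 to 956 CPM in Dicretin livers, 139 to 158 CPM in Semaglutide livers, 253 to 361 CPM in calorie-restricted livers and 142 to 175 CPM in saline livers, mostly from Sdc1, which hepatocytes also express. The part of any of these cell types in the members' levels was not tested.

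Set directly against calorie restriction, which matched the weight loss, Dicretin livers had 1 member higher and 3 lower, where 15.1% of all genes were called higher, 16.2% lower and 31.3% in either direction. Dnajb9 was higher by a log2 fold change of 0.98 ± 0.18 (99.2 ± 27.5 CPM in Dicretin and 50.2 ± 7.37 CPM in calorie restriction, SD, n = 4 each, adjusted p = 0.000424). Pdia4 was lower by the widest margin, at -1.15 ± 0.20 (110 ± 34.1 CPM in Dicretin and 243 ± 52.1 CPM in calorie restriction, adjusted p = 0.00029). Dnajb11 was lower at -0.54 ± 0.14 (97.5 ± 12.5 CPM in Dicretin and 142 ± 19.2 CPM in calorie restriction, adjusted p = 0.00602). The groups did not overlap for these 3 genes, as for 13.2% of all genes with Dicretin above and 15.2% with Dicretin below, and the calls held without any 1 library. Pdia6 was lower at -0.47 ± 0.16 (adjusted p = 0.0343), but this call was lost without Dicretin library 23 or 64 or calorie restriction library 7, 52 or 79 (adjusted p from 0.0568 to 0.109), so that 1 higher and 2 lower remained without library 64. For the other 6 members no difference passed. The 95% interval of the log2 difference was -0.46 to 0.55 for Hspa5, -0.92 to 0.30 for Hyou1, -0.44 to 1.02 for Creld2 and -0.48 to 0.35 for Xbp1. Of the 8 Kupffer markers, 5 were higher in Dicretin than in calorie restriction and 0 were lower, and their part in these differences was not tested.

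Semaglutide against calorie restriction gave 0 members higher and 1 lower, where 3.05% of all genes were called higher, 3.07% lower and 6.12% in either direction, and 7 members had an unadjusted p under 0.05. DESeq2's Wald test called 1 higher and 2 lower. Without Dicretin library 64 the counts were again 0 higher and 1 lower. The member that passed was Dnajb11 (94.3 ± 11.5 CPM in Semaglutide and 142 ± 19.2 CPM in calorie restriction, log2 fold change -0.59 ± 0.14, adjusted p = 0.0152). This call was lost without Semaglutide library 31 (adjusted p = 0.0594) or calorie restriction library 52 (0.0581). Xbp1 lay higher in every Semaglutide library than in every calorie-restricted library, as did 7.45% of all genes, yet its difference of 0.67 ± 0.20 did not pass (adjusted p = 0.0521), and it passed without Semaglutide library 11 or 15 or Dicretin library 14 or 65, with an adjusted p as low as 0.0262. Hyou1, at -0.88 ± 0.29, did not pass (adjusted p = 0.0814) and passed without Semaglutide library 51 or calorie restriction library 79, at an adjusted p as low as 0.0122.

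Between the 2 drugs, Dicretin livers had 3 members higher and 2 lower than Semaglutide livers, where 14.8% of all genes were called higher, 17.1% lower and 32% in either direction. Dnajb9 was higher at a log2 fold change of 0.80 ± 0.18 (99.2 ± 27.5 CPM in Dicretin and 57.0 ± 10.5 CPM in Semaglutide, adjusted p = 0.00206), and Xbp1 was lower at -0.74 ± 0.20 (150 ± 28.0 CPM in Dicretin and 251 ± 78.3 CPM in Semaglutide, adjusted p = 0.00854). Neither pair of groups overlapped, where 12% of all genes lay above and 14.2% below without overlap, and both calls held without any 1 library. Pdia4 was lower at -0.67 ± 0.20 (adjusted p = 0.0144; 0.0590 without Semaglutide library 51). Hspa5 was higher at 0.68 ± 0.24 (adjusted p = 0.0405) and Creld2 at 1.04 ± 0.35 (adjusted p = 0.0309), with overlapping groups. Without Dicretin library 65 neither of these passed and 1 higher and 2 lower remained, as also without Semaglutide library 15. The Hspa5 call was also lost without Semaglutide library 31 or saline library 35 or 78 (adjusted p from 0.0502 to 0.203 over all its losses), and the Creld2 call also without Semaglutide library 11 or 31 (0.0679 to 0.182). Without Dicretin library 64 the counts were again 3 higher and 2 lower.

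**Figure D3:**
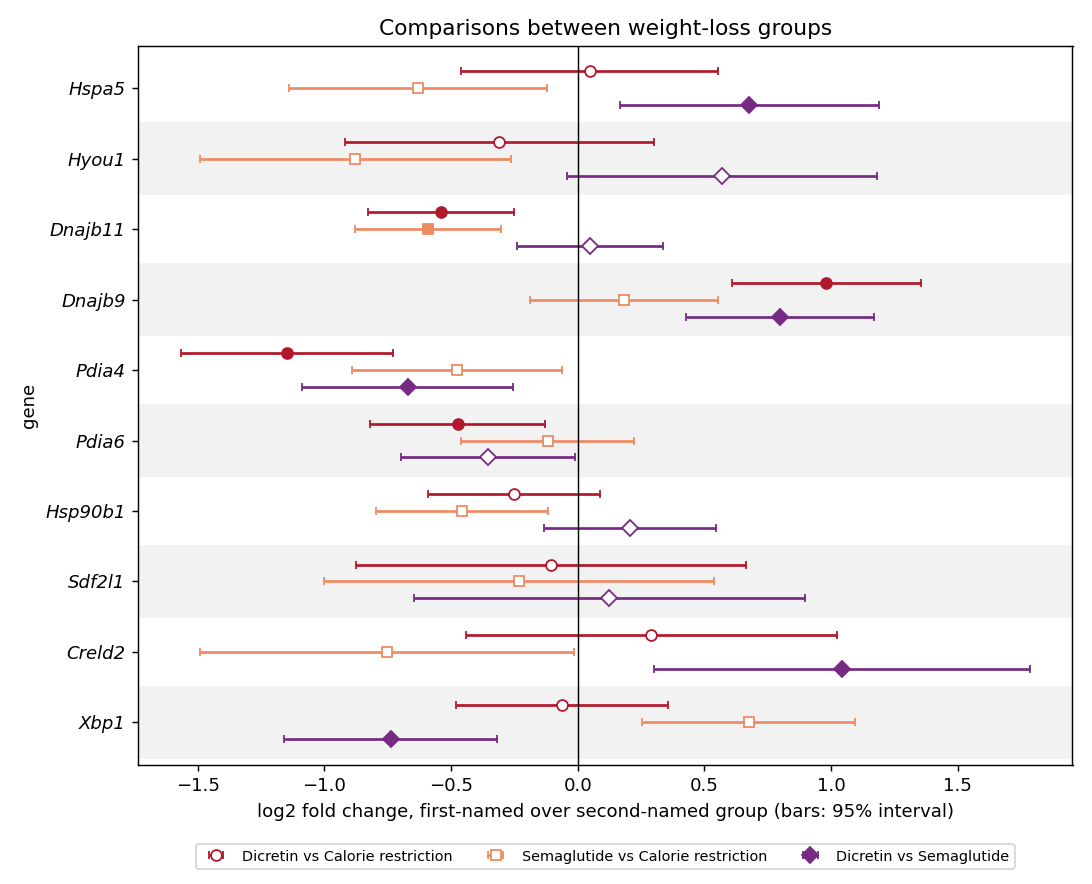
Log2 fold change of each member, first-named over second-named group, for Dicretin against calorie restriction, Semaglutide against calorie restriction and Dicretin against Semaglutide, with 95% intervals; filled symbols passed an adjusted p of 0.05. Dnajb9 lies right of 0 and Pdia4 left of 0 in both Dicretin comparisons, and Xbp1 lies left of 0 in Dicretin against Semaglutide.

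The balance between members within a library set some groups apart, but no ratio described here separated all 4 groups. These ratios were chosen after the values had been seen and are descriptions with no test. Hspa5 over Pdia4 was 9.78, 7.53, 10.4 and 10.4 in Dicretin livers, 4.34, 3.04, 3.95 and 3.82 in Semaglutide livers, 5.17, 4.31, 4.47 and 2.85 in calorie-restricted livers, and 2.47, 2.93, 2.34 and 2.78 in saline livers. All Dicretin libraries, library 64 included, lay above all others. Dnajb9 over Dnajb11 was 0.758 to 1.29 in Dicretin livers, 0.471 to 0.925 in Semaglutide livers, 0.308 to 0.429 in calorie-restricted livers and 0.667 to 0.833 in saline livers. Calorie-restricted libraries were lowest without overlap, and the Dicretin and saline ranges met. Hspa5 over Xbp1 was 4.87 to 9.80 in Dicretin livers, 1.77 to 3.79 in Semaglutide livers, 4.55 to 9.17 in calorie-restricted livers and 1.69 to 2.75 in saline livers. Dicretin and calorie-restricted libraries all lay above the Semaglutide and saline libraries.

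**Figure D4:**
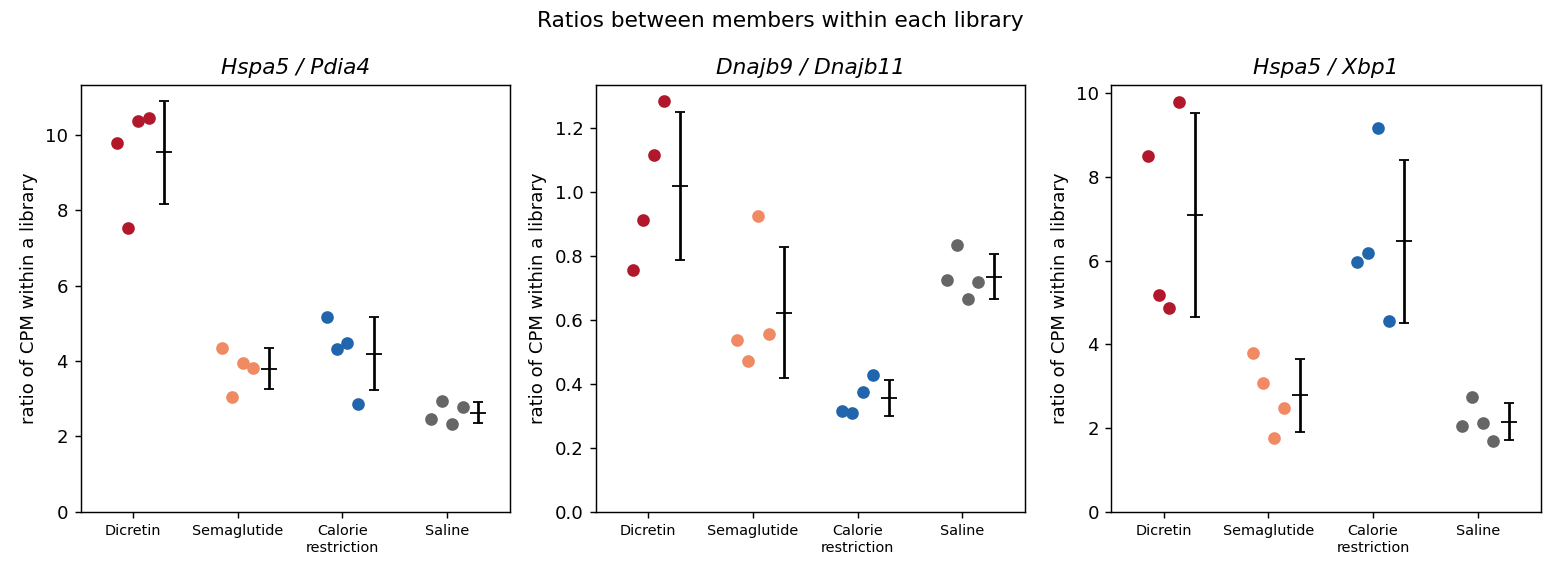
Ratio of CPM between pairs of members in each library (points, 4 per group in order of library number), with group mean and SD beside them. Hspa5 over Pdia4 exceeds 7 in each Dicretin library and stays below 6 in all others, and Dnajb9 over Dnajb11 is lowest in calorie restriction.

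Other genes of the same pathway were taken from lists of ER function, 161 tested genes in 6 lists. These lists too were chosen with earlier results of these data known. Against saline, 55 (34.2%) of the 161 were higher and 12 (7.45%) lower in Dicretin, where 17.5% of all genes were higher and 19.2% lower. In Semaglutide 16 (9.94%) were higher and 0 lower, where 1.56% of all genes were higher and 2.62% lower. In calorie restriction 32 (19.9%) were higher and 0 lower, where 3.42% of all genes were higher and 4.11% lower. The 12 lower calls in Dicretin were 8 or fewer without calorie restriction library 52, Dicretin library 64 or 65 or any 1 saline library, and 5 at the lowest, without saline library 35. Without Dicretin library 64 the Dicretin counts were 54 higher and 8 lower. The median log2 fold changes of the 161 genes were 0.28, 0.22 and 0.27 in that order of groups. Among 34 other ER folding factors, 16 were higher and 1, Txndc5, was lower in Dicretin livers, with 16 and 0 without library 64. Manf, an ER-resident stress-induced factor that is also secreted, rose to 111 ± 67.1 CPM in Dicretin and 98.9 ± 31.0 CPM in calorie restriction, against 29.4 ± 4.21 CPM in saline (log2 fold change 1.91 and 1.75, adjusted p = 0.000156 and 0.00246). In Semaglutide livers Manf was also higher than in saline, at 81.8 ± 22.8 CPM (log2 fold change 1.48, adjusted p = 0.0112). That Semaglutide call was lost without Semaglutide library 11 (adjusted p = 0.0508). Serp1, which stabilises membrane proteins in the ER, was at 445 ± 103 CPM in Dicretin livers and 223 ± 11.1 CPM in saline livers (log2 fold change 0.997 ± 0.178, adjusted p = 0.000265). Calorie restriction gave 11 of the 34 higher and 0 lower. Pdia3, the isomerase that serves glycoproteins, was at 665 ± 43.2 CPM there and 368 ± 18.1 CPM in saline (0.85 ± 0.18, adjusted p = 0.00677), and Dnajc3, a further J-domain protein, was at 312 ± 58.6 CPM and 190 ± 11.9 CPM in these groups (0.71 ± 0.15, adjusted p = 0.00586). The count of 11 was 6 without calorie restriction library 7 or saline library 50 or 73, and 7 without calorie restriction library 52 or saline library 35.

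Many genes of ER-associated degradation, which removes misfolded proteins, were higher in Dicretin livers. Of 31 tested, 19 (61.3%) were higher and 1 (3.23%) lower against saline, where 17.5% of all genes were higher and 19.2% lower. Against calorie restriction 11 (35.5%) were higher and 3 (9.68%) lower, where 15.1% of all genes were higher and 16.2% lower. Without library 64 these counts were 18 higher and 1 lower, and 10 higher and 0 lower. The ubiquitin-conjugating enzyme Ube2g2 was at 54.7 ± 1.85 CPM in Dicretin livers, 30.8 ± 2.30 CPM in calorie-restricted livers and 19.7 ± 2.40 CPM in saline livers. Its log2 fold change was 1.47 ± 0.13 for Dicretin against saline (adjusted p = 8.91e-08) and 0.83 ± 0.12 for Dicretin against calorie restriction (adjusted p = 5.84e-05). Selenos, a selenoprotein of the retrotranslocation complex, rose to 106 ± 26.3 CPM in Dicretin livers and 80.4 ± 24.8 CPM in Semaglutide livers, against 39.0 ± 4.4 CPM in saline livers (1.44 ± 0.19 and 1.04 ± 0.19, adjusted p = 1.62e-05 and 0.00396). Syvn1, the ubiquitin ligase HRD1, rose to 55.6 ± 5.57 CPM in Dicretin livers and 56.9 ± 8.99 CPM in calorie-restricted livers, against 31.6 ± 1.46 CPM in saline livers (0.82 ± 0.19 and 0.85 ± 0.19, adjusted p = 0.00285 and 0.0111). In calorie restriction against saline, 3 (9.68%) of the 31 were higher and 0 lower, where 3.42% of all genes were higher and 4.11% lower. That count was 6 without Semaglutide library 11 and 7 without Dicretin library 14. Counted in either direction, it reached 11 under an alternative setting of the processing.

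Against calorie restriction, where 15.1% of all genes were higher and 16.2% lower, Dicretin livers had 0 higher and 3 (11.5%) lower of 26 ER entry genes. Of 21 oligosaccharyltransferase and glycan-trimming genes, 2 (9.52%) were higher and 4 (19%) lower in that comparison. Without library 64 these lower counts were 3 and 3. The lower shares were near or below that over all genes, and the median log2 fold changes of the lists were -0.025 and 0.010. Ssr1, Rpn1 and Txndc5, described next, are lower calls and do not represent these lists as a whole. Ssr1, a subunit of the translocon-associated complex, was at 91.7 ± 22.3 CPM in Dicretin livers, 143 ± 13.4 CPM in calorie-restricted livers and 79.5 ± 3.19 CPM in saline livers (Dicretin against calorie restriction -0.64 ± 0.15, adjusted p = 0.00309, and calorie restriction against saline 0.85 ± 0.15, adjusted p = 0.00187). Rpn1, a subunit of the oligosaccharyltransferase, was at 115 ± 12.7, 161 ± 6.75 and 107 ± 3.91 CPM in Dicretin, calorie restriction and saline (-0.50 ± 0.12, adjusted p = 0.00482, and 0.59 ± 0.12, adjusted p = 0.0061). Txndc5, a disulfide isomerase from the list of folding factors, was at 107 ± 17.7, 248 ± 32.8 and 145 ± 10 CPM in Dicretin, calorie restriction and saline (-1.22 ± 0.14, adjusted p = 3.69e-06, and 0.78 ± 0.14, adjusted p = 0.00207). Against saline, 17.5% of all genes were higher and 19.2% lower in Dicretin, and 3.42% were higher and 4.11% lower in calorie restriction. Of the 21 oligosaccharyltransferase and glycan-trimming genes, 5 (23.8%) were higher and 0 lower in Dicretin against saline (6 and 0 without library 64). In calorie restriction 7 (33.3%) of these were higher and 0 lower. Of the 26 ER entry genes, 6 (23.1%) were higher and 2 (7.69%) lower in Dicretin against saline and 5 (19.2%) were higher in calorie restriction. The Dicretin count was 11 higher and 2 lower without Semaglutide library 11 and 6 higher and 1 lower without Dicretin library 64, and the calorie restriction count was 3 without its library 7 or 8 and 7 without Dicretin library 64. Sec61a1, the channel subunit, was higher in both, at 134 ± 31.4 CPM in Dicretin and 143 ± 18.4 CPM in calorie restriction, against 75.8 ± 2.98 CPM in saline (0.82 ± 0.16 and 0.92 ± 0.16, adjusted p = 0.000689 and 0.002).

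Of 34 genes of ER to Golgi transport, 7 (20.6%) were higher and 5 (14.7%) lower in Dicretin livers against saline, shares near the 17.5% and 19.2% over all genes. These were 5 higher and 2 lower without saline library 35, and 6 higher and 3 lower without Dicretin library 64. Sar1a, a GTPase of coat assembly, was higher (113 ± 5.98 CPM in Dicretin livers and 65.8 ± 1.94 CPM in saline livers, 0.78 ± 0.10, adjusted p = 1.49e-05), while the coat subunit Sec24a was lower (48.4 ± 11.6 CPM in Dicretin livers and 102 ± 15.9 CPM in saline livers, -1.07 ± 0.17, adjusted p = 9.36e-05). Calorie restriction gave 6 (17.6%) higher and 0 lower, where 3.42% of all genes were higher and 4.11% lower. Among the 6 was the cargo receptor Tmed9 (64.9 ± 10.4 CPM in calorie-restricted livers and 37.8 ± 4.11 CPM in saline livers, 0.78 ± 0.14, adjusted p = 0.00194). Tmed9 was also higher in Semaglutide livers, at 60.6 ± 6.90 CPM (0.68 ± 0.14, adjusted p = 0.0073). The summed Semaglutide count of 16 over the 6 lists ranged from 4 to 25 when libraries were left out in turn, lowest without saline library 35 and highest without Dicretin library 14. It was also 5 without saline library 50, 7 without saline library 73 and 9 without Semaglutide library 11. The calorie restriction count of 32 was 21 without its own library 7.

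Of 16 sensors and regulators of the unfolded protein response, 2 (12.5%) were higher and 3 (18.8%) lower in Dicretin livers against saline, no more than the 17.5% and 19.2% over all genes. Atf6, the sensor that acts on ER stress elements, was at 99.0 ± 29.9 CPM in Dicretin livers, 58.6 ± 14.3 CPM in Semaglutide livers and 50.9 ± 7.31 CPM in saline livers. It was higher in Dicretin by 0.96 ± 0.22 against saline (adjusted p = 0.00235) and by 0.76 ± 0.22 against Semaglutide (adjusted p = 0.0131). Nfyb, a subunit of NF-Y, was lower in Dicretin at 18.9 ± 4.72 CPM, against 37.1 ± 2.24 CPM in calorie restriction (-0.97 ± 0.17, adjusted p = 0.00028). Ern1, which encodes IRE1, was at 30.4 ± 11.1 CPM in Dicretin and 50.5 ± 8.86 CPM in calorie restriction, and its call as lower (adjusted p = 0.0262) was lost without Dicretin library 64 or 65 or calorie restriction library 7 or 79. The 3 lower calls against saline were 1 without Dicretin library 65 and 0 without saline library 35 or 73. In the PERK and ATF4 arm, 11 (73.3%) of 15 genes were higher and 0 lower in Dicretin against saline. Against calorie restriction 14 (93.3%) were higher in Dicretin (12 without library 64), where 15.1% of all genes were higher. Calorie restriction against saline gave 1 (6.67%) higher and 3 (20%) lower, where 3.42% of all genes were higher and 4.11% lower. That count was 1 higher and 1 lower without calorie restriction library 7 or 52 or saline library 73. Atf4 itself was higher in Dicretin at 192 ± 33.0 CPM and in calorie restriction at 115 ± 15.9 CPM, against 72.0 ± 7.00 CPM in saline (1.41 ± 0.15 and 0.67 ± 0.15, adjusted p = 1.35e-06 and 0.0106). Among 15 cytosolic and mitochondrial relatives of the chaperones, 7 were higher and 0 lower in Dicretin against saline (5 and 0 without library 64), and 3 higher and 1 lower in calorie restriction (2 higher and 0 lower without calorie restriction library 7 or 52 or saline library 35 or 50). Hspa9, the mitochondrial Hsp70, was at 1188 ± 275 CPM in Dicretin, 688 ± 63.3 CPM in calorie restriction and 539 ± 15.8 CPM in saline (Dicretin against calorie restriction 0.79 ± 0.16, adjusted p = 0.0013, and against saline 1.14 ± 0.16, adjusted p = 3.29e-05).

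**Figure D5:**
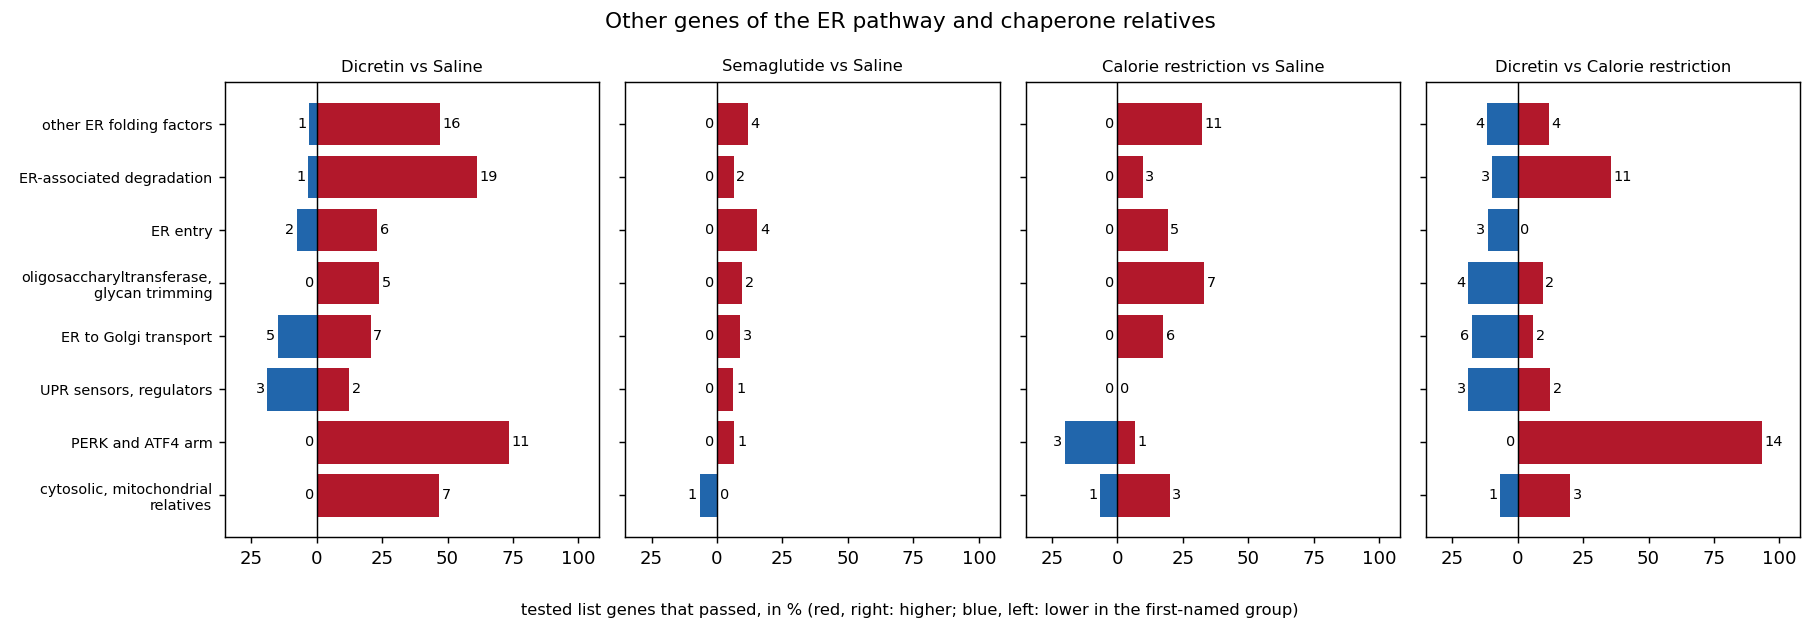
Share of the tested genes of each list, in percent, that passed as higher (red, right) or lower (blue, left) in the first-named group, with the number of genes at each bar. ER-associated degradation has 19 higher in Dicretin against saline and 3 in calorie restriction against saline, where 17.5% and 3.42% of all genes were higher. The PERK and ATF4 arm has 14 higher in Dicretin against calorie restriction, where 15.1% of all genes were higher.

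As a description, 8666 genes were ranked by Pearson's correlation with a score of the members over the 16 libraries. The score was the mean of the 10 members' log2 CPM, each centred and scaled. The leading gene was Manf at r = 0.94, followed by Stip1, a cochaperone of cytosolic Hsp70 and Hsp90, at 0.92 and Hspa13, an Hsp70 relative of the ER, at 0.92. Next came Actl6a, Magt1, Calr, Morf4l2, Pdia3, Ddost and Sec61a1, at 0.91 to 0.86. Of these 10 genes, 6 stand in the ER lists above. The libraries share their groups and depth, so the correlations were also taken with group means removed and the score formed anew. They were then 0.87 for Manf, 0.78 for Stip1, 0.88 for Hspa13 and 0.53 for Sec61a1.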

How the data were processed

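Poly(A)-selected liver RNA was sequenced as 16 directional libraries, per the labels' protocols. The authors deposited raw read counts per gene for all libraries in 1 table, with TopHat2 2.1.1, featureCounts and mm10 named in the submitters' processing notes; neither strand setting nor annotation release is given in the sources used here. All rows were genes, and each column was matched to a library by title. Counts were tested with edgeR 4.0.16 in R 4.3.3 (filterByExpr, TMM, robust quasi-likelihood fit, 4 group means, 6 contrasts), with Benjamini-Hochberg adjustment over 12910 genes and a threshold of 0.05. The biological coefficient of variation was 0.24. SE is the log2 fold change over the square root of F. The fit was tested on simulated counts. CPM per kilobase used union exon lengths of GENCODE M21 on GRCm38, and the positions given come from it. Totals of 12143829 to 18755393 counts set the precision, which covers counting error and the spread between libraries.

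The members, gene lists and tests were chosen with earlier results of these data known. List genes were named from up to 4 with the smallest p per list and comparison and at least 2 CPM. Likeness candidates had a mean of at least 5 CPM. Alternatives were DESeq2 1.42.0 (its size factors and its Wald test), limma-voom 3.58.1, upper quartile factors, other low-count filters, leaving out the 20 most abundant genes, a fit of the compared groups alone, a gene length correction (span 0.5) and each library left out. No sequence of the proteins was used here.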

Additional observations from a re-analysis of the deposited data

Results flagged for a closer look

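In groups of 4 libraries, a value was marked where its gap to the nearest other library exceeded Dixon's 95% critical share of the group's range. Of 40 groups (10 members in 4 groups), 4 were marked, and chance marks about 1 in 20 groups. Hspa5 was at 1652 CPM in Dicretin library 65, where the other Dicretin libraries had 796 to 934 CPM. Creld2 was at 115 CPM in the same library, where the others had 38.6 to 45.5 CPM. Hyou1 was at 152 CPM in Semaglutide library 51, where the others had 69.2 to 73.6 CPM. Dnajb11 was at 77.2 CPM in Semaglutide library 31, where the others had 98.0 to 102 CPM.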

How the results depend on the processing

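No called result changed direction under any alternative. The count of members called was 3 for Semaglutide against saline and 6 with DESeq2's Wald test; it was 1 for Semaglutide against calorie restriction and 3 with that test; and it was 5 for Dicretin against Semaglutide and 2 when only these groups were fitted. With each library left out in turn, the counts ranged from 7 to 7 for Dicretin against saline (6 higher and 1 lower without Dicretin library 65), 1 to 4 for Semaglutide against saline, 5 to 8 for calorie restriction against saline, 3 to 4 for Dicretin against calorie restriction, 0 to 2 for Semaglutide against calorie restriction and 3 to 5 for Dicretin against Semaglutide. Of the 161 genes in the 6 ER lists, 32 were higher and 0 lower in calorie restriction against saline, but 63 and 4 when only these groups were fitted, 49 and 1 with DESeq2's Wald test and 50 and 1 with the gene length correction; in Semaglutide, 16 were higher, but 28 with the Wald test and 30 with the length correction; in Dicretin, 55 higher and 12 lower became 51 and 4 without the low-count filter. The Dicretin counts were 80 higher and 9 lower with the gene length correction, and 48 and 15 with upper quartile factors. The causes were not tested. Without the low-count filter, more genes were adjusted for and Sdf2l1 did not pass in Dicretin or calorie restriction, nor Hyou1 in Semaglutide, each against saline. Over all settings, the median log2 fold change of all genes stayed within 0.1 of 0. Left-out groups keep 3 libraries, and the fit assumes that all groups vary alike. No paired analysis was possible because no replicate number occurs in more than 1 group.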
